A study of Mus musculus with 4 samples.

Results

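The levels of 6 genes were followed in the lymph node of mice with EAE (experimental autoimmune encephalomyelitis, a mouse model of multiple sclerosis in which immunisation sets off inflammation of brain and spinal cord): Pdp1, Pdk4, Hilpda, Aco1, Grhpr and Impdh1. They were taken by symbol, 6 of the 56748 gene IDs in each count table, as genes that control pyruvate dehydrogenase or handle other metabolites. RNA came from 4 mice with EAE, 1 library each. In the BrQ group, 2 mice were treated with 2-bromo-1,4-naphthalenedione, a brominated naphthoquinone; in the Vehicle group, 2 mice served as controls. Both groups carried the same disease, so no healthy mouse enters a comparison; the sources used here do not give strain, age, dose or day of collection. Pieces of whole lymph node mix many cell types, so fewer cells of a type and less RNA per cell cannot be told apart.

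Pyruvate dehydrogenase is the mitochondrial enzyme complex that turns pyruvate from glycolysis into acetyl-CoA. Its kinases, Pdk4 among them, switch it off by phosphorylation, and its phosphatases, with Pdp1 as a catalytic subunit, remove the phosphate and switch it on. Lymphocytes that become activated burn more glucose and need more nucleotides, and the balance of kinase and phosphatase helps to set how much pyruvate is oxidised rather than turned into lactate.

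The other 4 genes act beside this switch. Hilpda encodes a small lipid droplet protein, induced by low oxygen, that inhibits the lipase releasing fatty acids from stored fat. Aco1 encodes cytosolic aconitase, which converts citrate to isocitrate and, without its iron-sulphur cluster, binds messenger RNAs of iron metabolism as iron regulatory protein. Grhpr encodes the reductase that clears glyoxylate and hydroxypyruvate. Impdh1 encodes an inosine monophosphate dehydrogenase, the enzyme of the rate-limiting step toward guanine nucleotides.

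On GRCm38 (GENCODE M21), 3 of the genes lie on chromosome 4: Pdp1 from 11958184 to 11966452 on the minus strand, Aco1 from 40143081 to 40198338 and Grhpr from 44981395 to 44990734, both on the plus strand. The other 3 lie on chromosome 6: Pdk4 from 5483351 to 5496309 and Impdh1 from 29200434 to 29216364 on the minus strand, and Hilpda from 29272488 to 29275446 on the plus strand. Impdh1 and Hilpda are separated by 56123 bases. No other M21 gene overlaps the span of any of the 6, on either strand. Most gene names elsewhere in these tables appear displaced from their reads, and the sources used here do not name the annotation used for counting, so the 6 rows are taken as readings of their genes without a direct check. Of 32 other protein-coding genes within 250 kb of them, 19 averaged at least 100 reads, 2 averaged 10 to 100 and 11 averaged under 10.

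The libraries held 6813832 to 7989226 reads in gene intervals, and reads in no interval were 86.8% to 88.8% of all read rows. Mitochondrial transcripts took 15.8% and 12.1% of gene reads in BrQ replicates 1 and 3 and 20.6% and 30.3% in Vehicle replicates 1 and 3. Levels are given in CPM, reads divided by the library's total over the features that passed the low count filter and put on a common scale with TMM factors, which sets the bulk of genes level between libraries. Of the lymphocyte markers, Pax5 and Cd72 of B cells summed to 2075 and 2126 CPM in BrQ against 3254 and 3391 in Vehicle. Most of that gap was Cd72, which fell (log2 fold change -1.01, adjusted p = 0.000285, edgeR), while Pax5 did not pass (-0.22, adjusted p = 0.155, edgeR). The T cell markers went both ways: Il7r and Sit1 fell (-0.61 and -0.78), and Tox rose (0.72, adjusted p = 0.00682, edgeR), from 46.6 and 45.4 CPM in Vehicle to 80.6 and 71.5 in BrQ. Their sum, mostly Il7r, was 679 and 755 CPM in BrQ against 1005 and 1070. The 7 names for stroma, vessel and fat (Col1a2, Cav1, Cav2, Tpm2, Lep, Ccl19 and Ccl21a) summed to 24.0 and 19.6 CPM in BrQ against 27.2 and 33.6 in Vehicle, and Col1a2 made up most of it (13.6 and 11.5 against 17.9 and 25.5). Ccl19 went the other way (3.41 and 1.03 against 0.726 and 0 CPM). The groups overlapped for Cav1 (0.253 and 1.29 against 1.16 and 1.99) and Cav2 (4.29 and 1.55 against 1.02 and 2.76). They also overlapped for Tpm2 (2.40 and 4.26 against 6.39 and 3.38). Lep of fat cells and Ccl21a of lymph node stroma had 0 reads in all 4 libraries. The markers were limited to stretches where an earlier look at these data took names and reads to meet. Their rows were not checked directly, so a row at 0 is not taken as absence of the transcript. Across the table, 4676 of 10223 features tested passed the threshold of 0.05 for the adjusted p of edgeR's quasi-likelihood test, 45.7%; the share was 23.6% for higher and 22.2% for lower in BrQ.

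The bases upstream of 3 genes are shown because they cover the span of the results. Impdh1 is the member that passed the test, Hilpda is its neighbour on the chromosome, and the Pdk4 row held few reads. Each runs 5′ to 3′ toward the RefSeq start of the gene on GRCm38.p6, at chr6:29216365-29216614 (minus strand), chr6:29272238-29272487 (plus strand) and chr6:5496310-5496528 (minus strand). For Pdk4 the 31 bases nearest the start are left out, since M21 counts them as transcribed. Capitals mark matches, on either strand, to the GC box GGGCGG, the hypoxia response core ACGTG or GCGTG, the CCAAT box CCAAT or the TATA box TATAAA.
Impdh1: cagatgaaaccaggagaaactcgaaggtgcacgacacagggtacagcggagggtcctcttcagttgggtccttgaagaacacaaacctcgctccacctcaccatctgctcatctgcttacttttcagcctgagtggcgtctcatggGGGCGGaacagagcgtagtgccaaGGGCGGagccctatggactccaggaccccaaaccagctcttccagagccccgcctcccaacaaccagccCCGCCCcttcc
Hilpda: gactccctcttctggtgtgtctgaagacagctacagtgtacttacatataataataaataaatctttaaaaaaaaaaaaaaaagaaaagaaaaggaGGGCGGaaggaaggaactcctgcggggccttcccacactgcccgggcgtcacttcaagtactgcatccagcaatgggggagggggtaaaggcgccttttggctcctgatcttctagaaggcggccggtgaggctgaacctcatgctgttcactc
Pdk4: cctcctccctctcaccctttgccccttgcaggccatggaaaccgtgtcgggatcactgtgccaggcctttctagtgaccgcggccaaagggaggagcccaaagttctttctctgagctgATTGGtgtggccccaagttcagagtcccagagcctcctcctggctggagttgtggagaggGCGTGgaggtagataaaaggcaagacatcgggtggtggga

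The Impdh1 window held 3 GC boxes, starting 104, 80 and 11 bases before the RefSeq start, and none of the other motifs. A second RefSeq start of Impdh1 lies inside the gene, and its window held 2 GC boxes and 3 hypoxia cores. Hilpda had 1 GC box, 154 bases before its start, and no hypoxia core in this window. For Hilpda too RefSeq gives a second start, further into the gene, with a window that overlaps this one and held 3 hypoxia cores. Pdk4 held no GC box, 1 CCAAT box on the opposite strand and 1 hypoxia core. The Aco1 and Grhpr windows held 3 and 2 GC boxes and no match to the other motifs. Most of the Aco1 window, from 40143015 to 40143264, lies inside the gene as M21 places it, from 40143081 on. Pdp1 is named only. Among 32851 RefSeq windows of 250 bases, 32.7% held a GC box, 38.6% a hypoxia core, 33.8% a CCAAT box and 12.4% a TATA box, so such matches are common, and a match is not a shown binding site. Base content was taken over the full 250 bases, which for Pdk4 include the 31 bases not printed. By this measure, the Impdh1 and Pdk4 windows were alike, at 59.2% and 58.8% G or C. The first Hilpda window stood at 48.4%, against a median of 52.4%.

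Levels can be compared between genes per kilobase of exon, using the M21 exon union. Impdh1 was the highest of the 6, with 63.5 ± 0.0800 CPM per kb for BrQ and 100.5 ± 15.4 for Vehicle (SD, n = 2 each). Grhpr (25.3 ± 2.83 and 30.9 ± 0.537), Hilpda (22.6 ± 6.62 and 31.6 ± 5.95) and Aco1 (18.1 ± 3.04 and 18.4 ± 1.72) formed a middle band. The order of Grhpr and Hilpda is within their spread over libraries, while Hilpda stood above Aco1 in each of the 4 libraries. Pdp1 lay lower, at 7.57 ± 0.427 and 5.63 ± 0.756 CPM per kb. Pdk4 was last, between 0 and 0.656 CPM per kb.

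**Figure D1:**
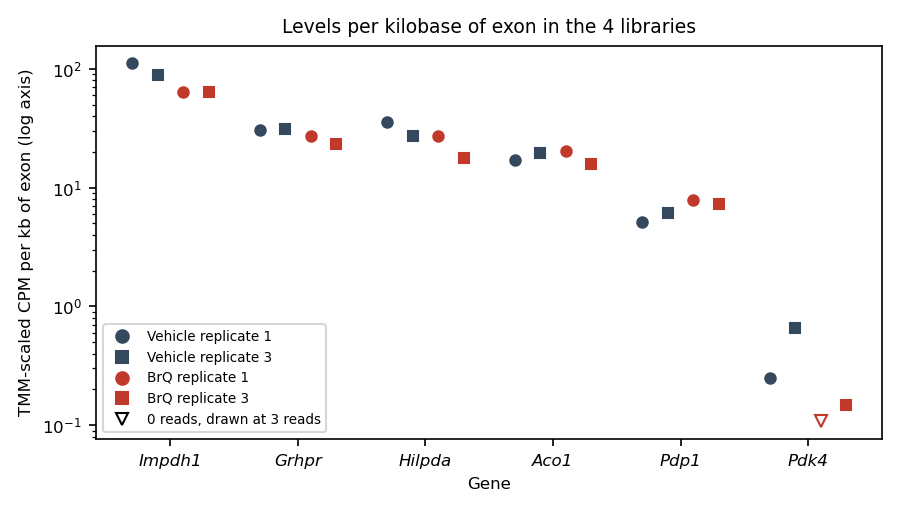
TMM-scaled CPM per kb of exon (log axis) for the 6 genes, ordered by their mean over the 4 libraries; each point is 1 mouse, and the open triangle stands for 0 reads, drawn at the level of 3 reads. Impdh1 stands above the other 5 in each library, and Pdk4 stands below them.

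BrQ was compared with Vehicle to ask which transcripts differ in the node after treatment. Impdh1 was the 1 member that passed, and it fell. Its row held 1655 and 1623 reads in BrQ replicates 1 and 3, and 2527 and 1924 in Vehicle replicates 1 and 3. In TMM-scaled CPM this was 209 in each BrQ library against 367 and 295 in Vehicle. Both BrQ mice sat below both Vehicle mice, and nearly all of the spread was within Vehicle. The mean went from 331 ± 50.8 to 209 ± 0.263 CPM, 36.8% lower in BrQ (SD, n = 2 each). The log2 fold change was -0.66 ± 0.15 (SE), with a 95% interval from -0.99 to -0.33 and an adjusted p of 0.00599 by edgeR's quasi-likelihood test.

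The call of Impdh1 was lost with library size alone (log2 fold change -0.30, adjusted p = 0.191, edgeR), with no low count filter (-0.63, adjusted p = 0.0537, edgeR) and without BrQ replicate 3 (-0.65, adjusted p = 0.0677, edgeR); the range of adjusted p over its 17 alternatives was 0.000597 to 0.191. Mitochondrial reads and the marker sums of B cells, of T cells and of stroma, vessel and fat were also lower in both BrQ libraries. The B and T cell sums were lower through Cd72, Il7r and Sit1, with Pax5 not past the threshold and Tox higher. The stroma, vessel and fat sum was mostly Col1a2. The part of mitochondrial reads and of these sums in the fall of Impdh1 was not tested.

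Pdp1, the phosphatase that activates pyruvate dehydrogenase, had 281 and 254 reads in BrQ replicates 1 and 3, against 158 and 181 in Vehicle replicates 1 and 3. Its CPM values were 35.5 and 32.8 in BrQ and 23.0 and 27.8 in Vehicle. The groups did not overlap, with means of 34.1 ± 1.92 and 25.4 ± 3.41 CPM, a ratio of 1.35. By the edgeR test the log2 difference of 0.43 ± 0.20 did not pass (adjusted p = 0.108), and its 95% interval ran from -0.02 to 0.88.

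Whether Pdp1 passed turned on how the libraries were scaled. It passed as higher in BrQ with library size alone (0.81, adjusted p = 0.00798, edgeR), with library size from all read rows (0.64, adjusted p = 0.0251, edgeR) and with scaling on the chromosome 4 and 6 stretches that hold these genes (0.61, adjusted p = 0.0310, edgeR; chosen after seeing the data). Those 3 scalings also move the median over all features tested, from 0.05 to 0.42, 0.26 and 0.23. Relative to that median, Pdp1 stood 0.38 higher with TMM and 0.39, 0.38 and 0.38 higher under the other 3. Impdh1 stood at -0.71 with TMM and at -0.72 under each of the 3. A change of scaling shifts all features by nearly the same amount, so these distances had to stay nearly constant and add no support.

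**Figure D2:**
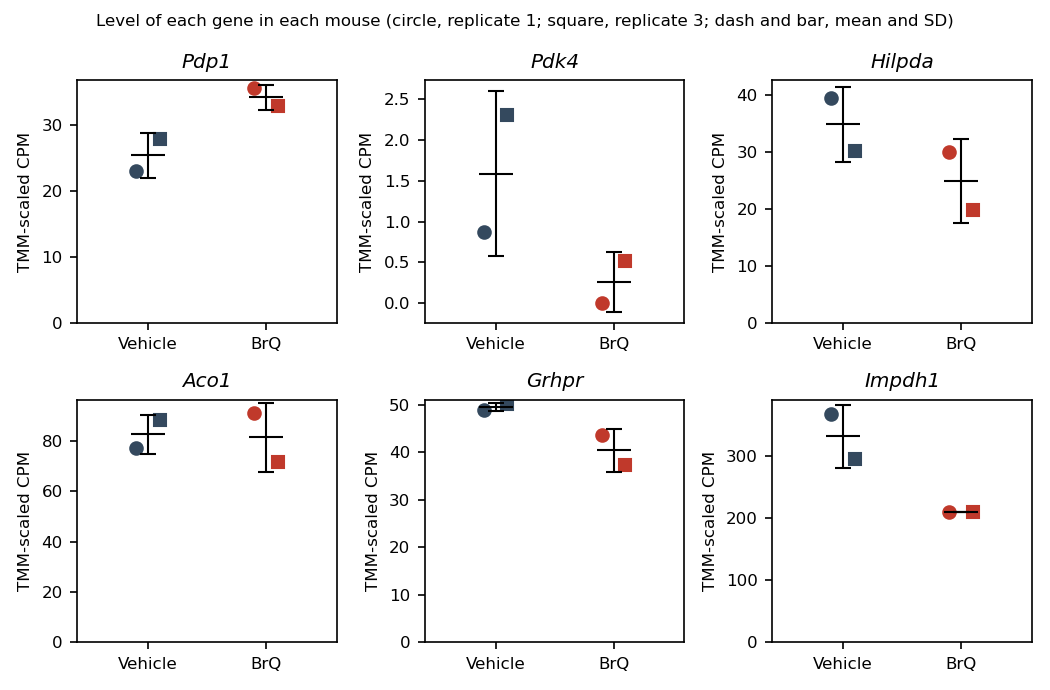
TMM-scaled CPM of each of the 6 genes in each mouse; circles are replicate 1, squares replicate 3, and the dash and bar are the mean and SD of the 2 mice of a group. For Impdh1, both BrQ points at 209 CPM lie below both Vehicle points, and for Aco1 the groups overlap.

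Few reads fell in the row of Pdk4, a kinase that inactivates the complex. That row was not checked directly, so its low count is not taken as a silent gene. The Pdk4 row held 0 and 4 reads in BrQ replicates 1 and 3, and 6 and 15 in Vehicle replicates 1 and 3. The 0 in BrQ replicate 1 is set against a floor of 3 reads, 0.379 CPM, and the others stood at 0.516, 0.872 and 2.30 CPM. In the same order, two-sided 95% intervals for counting error alone (exact Poisson) were 0 to 0.466, 0.141 to 1.32, 0.320 to 1.90 and 1.29 to 3.80 CPM. The interval of BrQ replicate 1 lies below that of Vehicle replicate 3 but overlaps that of Vehicle replicate 1. The interval of BrQ replicate 3 overlaps those of both Vehicle replicates. Summed over mice, 21 reads in Vehicle against 4 in BrQ gave a level 6.14 times as high (2.07 to 24.6), an interval that leaves out the spread between mice.

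Too few reads kept Pdk4 out of the main test. With no low count filter its fitted log2 fold change was -2.51 ± 1.15 (SE; adjusted p = 0.226, edgeR), a value that depends on the prior count. Without Vehicle replicate 1 it entered the test only through the 15 reads of Vehicle replicate 3 (-3.11, adjusted p = 0.0351, edgeR); the spread then comes from BrQ alone, and that value is not taken as a call. Without Vehicle replicate 3 it had too few reads to be tested. In each library the Pdp1 row exceeded the Pdk4 row per kilobase. The ratio was 73.0 in BrQ replicate 1 (taking 3 reads for the 0) and 49.5 in BrQ replicate 3. In Vehicle replicates 1 and 3 it was 20.5 and 9.40. Other kinases and phosphatases of the complex could not be read, so the balance of the switch was not measured. The ratio was higher in both BrQ libraries, but 3 of these 4 values rest on 6 Pdk4 reads or fewer. Groups also did not overlap for 72.1% of all pairs of tested features with reads in all 4 libraries, a set without Pdk4.

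Hilpda, the lipid droplet protein, held 238 and 153 reads in BrQ replicates 1 and 3, and 272 and 197 in Vehicle replicates 1 and 3. This was 30.1 and 19.7 CPM in BrQ against 39.5 and 30.2 in Vehicle. The groups barely failed to overlap, since BrQ replicate 1 and Vehicle replicate 3 were almost level. In both groups replicate 1 stood above replicate 3. The log2 fold change was -0.49 ± 0.25 (adjusted p = 0.135, edgeR), with a 95% interval from -1.04 to 0.07. The fold change went from -0.20 without BrQ replicate 3 to -0.81 without BrQ replicate 1, and to -0.13 with library size alone; none of its 17 alternatives passed.

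Aco1, the aconitase and iron regulatory protein, gave 91.2 and 71.9 CPM in BrQ replicates 1 and 3 and 77.3 and 88.2 in Vehicle replicates 1 and 3. The 2 BrQ mice lay on either side of both Vehicle mice. The means of 81.5 ± 13.7 and 82.8 ± 7.74 CPM differed by less than the spread between mice (log2 fold change -0.02 ± 0.18, adjusted p = 0.932, edgeR). The 95% interval of the difference, from -0.41 to 0.37 on the log2 scale, excludes a 2-fold change in either direction under TMM scaling. Library size alone gave 0.35.

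Grhpr, the glyoxylate reductase, stood at 43.7 and 37.3 CPM in BrQ replicates 1 and 3 against 49.0 and 50.2 in Vehicle replicates 1 and 3. Both BrQ values lay below both Vehicle values. The means were 40.5 ± 4.54 and 49.6 ± 0.861 CPM, and the log2 difference of -0.29 ± 0.18 did not pass (adjusted p = 0.206, edgeR; 95% interval -0.69 to 0.11). With library size alone it was 0.08, so its direction was not the same under every scaling. The sign held under 16 of the 17 alternatives.

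Of the 6 genes, 5 had enough reads to be tested and 1 passed, against 45.7% of all features tested. The median log2 fold change of the 5 was -0.29, beside 0.05 over all features tested. Groups did not overlap for 4 of the 5, and for 76.1% of all features tested (39.9% higher and 36.2% lower in BrQ). Neither count sets these genes apart from the rest of the table.

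**Figure D3:**
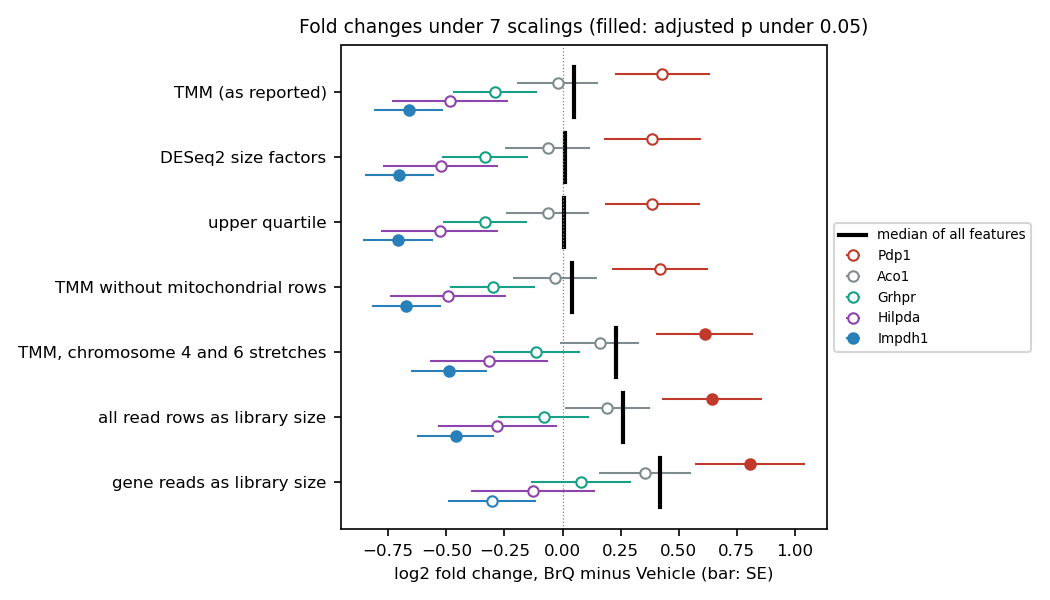
Log2 fold change (BrQ minus Vehicle, bar: SE) of 5 genes under 7 ways of scaling the libraries; filled points have an adjusted p under 0.05 and the black line is the median over all features tested. All 5 genes shift together with the median, Impdh1 losing the call with library size alone and Pdp1 gaining it in the 3 lowest rows.

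Ratios of 2 genes inside a library do not depend on how libraries are scaled. There were 10 pairs among the 5 genes with enough reads, and they are given as a description with no test: 2 mice against 2 cannot give a p below 0.33 in an exact permutation test. The widest gap was that of Pdp1 to Impdh1, the genes with the highest and the lowest fold change of the 5. Pdp1 had 0.170 and 0.157 reads per Impdh1 read in BrQ replicates 1 and 3, against 0.0625 and 0.0941 in Vehicle replicates 1 and 3, a mean 2.13-fold higher in BrQ on the log scale. The log2 ratio was -2.62 ± 0.08 among BrQ mice and -3.70 ± 0.42 among Vehicle mice (SD, n = 2 each).

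Pdp1 was also higher in BrQ relative to each of the other 3, with no overlap between groups. That direction follows from the fold changes of the single genes given above, so it is no separate support. The log2 ratio differed by 0.94 for Pdp1 to Hilpda, 0.73 for Pdp1 to Grhpr and 0.46 for Pdp1 to Aco1. Aco1 relative to Impdh1 was 0.63 higher and Grhpr relative to Impdh1 0.36 higher, again without overlap. Hilpda to Impdh1 (0.15) and Hilpda to Grhpr (-0.21) overlapped between the groups. In all, 8 of the 10 pairs did not overlap, beside 72.1% of all pairs of tested features with reads in all 4 libraries, so that count does not set these genes apart. The pairs share genes and are not 8 separate observations.

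**Figure D4:**
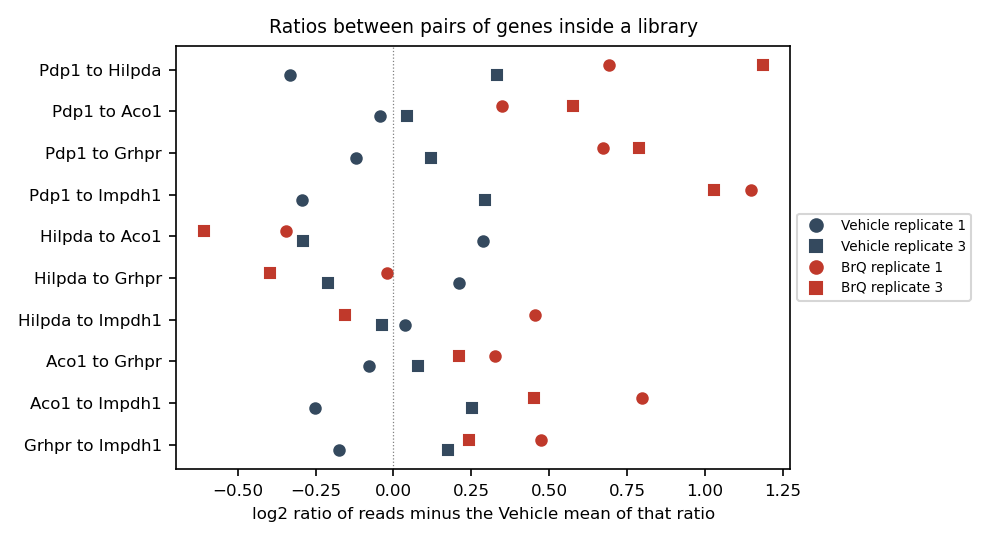
Log2 ratio of reads for 10 pairs of genes inside each library, minus the Vehicle mean of that ratio; each point is 1 mouse, coloured by group. All 4 ratios with Pdp1 on top lie higher in both BrQ mice than in both Vehicle mice, and the 2 ratios of Hilpda to Grhpr and to Impdh1 overlap.

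Other genes of these pathways could not be read in the same way. A list of 67 names covered the rest of the pyruvate dehydrogenase complex and its control, pyruvate and lactate handling, the citrate cycle, lipid droplets and fatty acid oxidation, purine synthesis, iron response and glyoxylate. Of these, 25 had 0 reads in all 4 libraries, 11 averaged at least 100 reads, and the median was 1.50 reads. The test could be run on 20, of which 4 passed as higher and 6 as lower in BrQ by edgeR. Over all features tested, 23.6% passed as higher and 22.2% as lower, 45.7% in all. Among the 10 names of the complex and its control, 5 had 0 reads throughout, 4 were tested, 1 passed as higher and 2 as lower. Names at 0 include Pdha1 and Pdhb, the E1 subunits of the complex that nearly every cell uses (picked after their values were seen), so these rows are not taken as readings of the named genes.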

How the data were processed

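The members and lists were chosen with earlier results of these data known, and all 6 members are reported whatever their values. The authors deposited 1 table of unnormalised read counts for each mouse. The submitters' processing notes name HISAT2 2.1.0, HTSeq 0.11.2 and Trim Galore 0.6.2, with mm10; the sources used here give neither the annotation release nor the strand setting. The 5 closing rows that name no gene (87.0% to 89.0% of all read rows) stayed out of library sizes and tests, except in 1 alternative. Groups and replicate numbers came from sample titles.

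All features were fitted with edgeR 4.0.16 in R 4.3.3 (quasi-likelihood, filterByExpr, TMM, no term besides group), with p-values adjusted by Benjamini-Hochberg over 10223 features; limma 3.58.1 and DESeq2 1.42.0 served as alternatives and matplotlib 3.10.9 for figures. Positions and exon lengths came from GENCODE M21, upstream sequence from a table of RefSeq windows (GRCm38.p6), in which 5 of the 6 genes were matched. On simulated counts for BrQ vs Vehicle, 9840 features were tested: 47 of 100 changed 2-fold and 87 of 100 changed 4-fold were recovered, with 12 false calls among 146. The simulation changed 200 features and left all others equal between groups. In the data 45.7% of features passed, so these rates may not carry over. As a check for a library deposited more than once only, chi-square divided by degrees of freedom was 12.4 within BrQ and 26.6 within Vehicle. The labels name 4 different mice; with 2 per group, the tests see no spread beyond these animals, and counting intervals cover counting error only.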

Additional observations from a re-analysis of the deposited data

Results flagged for a closer look

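Reads in no gene interval averaged 88.7% of all read rows for BrQ and 87.3% for Vehicle. Each BrQ library exceeded each Vehicle library in this share. Among comparisons of the 6 genes, these reads enter only the alternative with library size from all read rows.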

How the results depend on the processing

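Hilpda kept its sign and stayed short of the threshold under all 17 alternatives. Impdh1 kept its sign under 17 and its call under 14. It lost the call with library size alone (-0.30), with no low count filter (-0.63) and without BrQ replicate 3 (-0.65). Leaving out 1 library gave -0.82 to -0.52. Pdp1 kept its sign under 17 and passed with library size alone (0.81), library size from all read rows (0.64) and scaling on chromosome 4 (4 to 62 Mb) and chromosome 6 (4 to 17 and 29 to 30 Mb) stretches, chosen after seeing the data (0.61). Aco1, near 0, changed sign with library size alone (0.35), all read rows (0.19), those stretches (0.16) and no low count filter (0.012), and leaving out 1 library gave -0.19 to 0.15. Grhpr changed sign with library size alone (0.080). Pdk4, reported at -2.51 with no low count filter, was otherwise fitted under 3 alternatives, each without 1 library, at -6.49 to -1.56, where the 15 reads of Vehicle replicate 3 let it past the filter; the lowest is set against a BrQ library at 0 reads and is no bound.

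Features called numbered 4676, 2481 with no low count filter, and 2036 to 4377 with 1 library left out, lowest without BrQ replicate 3. The split of higher against lower calls was 2409 to 2267 with TMM, 3603 to 1072 with library size alone, 3092 to 1578 with all read rows and 2930 to 1643 with the stretches. The numbers 1 and 3 in the titles are not stated to pair mice, and deviations of same-numbered libraries correlated at -0.12 over 10223 features. The replicate block gave 4191 calls and changed no call of a member (Impdh1 -0.65, Pdp1 0.43, Hilpda -0.50, Grhpr -0.30, Aco1 -0.03). Crossed numbers as a block, chosen after seeing the data, gave 5285 calls. At this depth Pdk4 is limited by its reads.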
